A study of Homo sapiens with 12 samples.

Results

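The citrate cycle oxidizes acetyl-CoA in the mitochondrion, and this section describes the RNA levels of 31 genes that encode its enzymes and the steps by which pyruvate, malate, glutamate, and aspartate enter or leave it. The members were taken by name, as the rows of the raw count table whose symbol equals that of a member, which gave 1 row for each and 31 of 60649 genes in all. Succinate dehydrogenase is not among them and is given with the related genes further on. RNA was measured in 12 libraries of 2 established human uterine leiomyosarcoma (uLMS) lines, both labelled WT. SK-UT-1B came from a primary tumor and is epithelial-like in shape. SK-LMS-1 was derived from a vulvar metastasis of uLMS. Exposure lasted 72 h in all groups. SK-UT-1B received the DMSO vehicle (libraries 4-1 and 4-2) or a combination of MK-0752, gemcitabine, and docetaxel (libraries 3-1 and 3-3). SK-LMS-1 received DMSO (libraries 2-1 and 2-3, called set 2 here, and 4-1 and 4-2, called set 4), MK-0752 alone (2-2 and 2-3), or the combination (4-1 and 4-2). The sources do not say which DMSO libraries are the controls of which SK-LMS-1 treatment, so set 2 was matched to MK-0752 and set 4 to the combination by the first number of the library names, which is an assumption. MK-0752 is a gamma secretase inhibitor that blocks Notch receptor activation, gemcitabine is a nucleoside analog, and docetaxel is a taxane. Each treatment was given at its own IC30, so the doses differ between the lines and between MK-0752 alone and the combination. Each line came from 1 tumor, so a difference between the lines cannot be told apart from one between a primary tumor and a metastasis.

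Pyruvate enters mitochondria through the MPC1 and MPC2 carrier and is turned into acetyl-CoA by the pyruvate dehydrogenase complex or into oxaloacetate by pyruvate carboxylase. Citrate synthase joins acetyl-CoA to oxaloacetate, and the cycle then passes through isocitrate, oxoglutarate, succinyl-CoA, succinate, fumarate, and malate back to oxaloacetate. Several steps have isozymes that differ in compartment or cofactor, such as the cytosolic IDH1 and the mitochondrial IDH2, both of which use NADP, and the 3 malic enzymes, which decarboxylate malate to pyruvate.

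Between 25250057 and 40709885 reads were counted on genes in each library. Reads of mitochondrially encoded genes made up 3.60% to 5.81% of the counts in SK-UT-1B and 2.33% to 3.09% in SK-LMS-1. When the count of a gene was predicted from the remaining libraries of its line, 17.6% to 34.5% of the genes predicted at 5 to 500 counts had none in a given library, where Poisson sampling gives 0.0234% to 0.0374%. A 0 in a single library is therefore weak evidence for low-count genes. Of 8 smooth muscle markers, 6 were higher in every SK-LMS-1 library than in every SK-UT-1B library, and the summed level of the 8 was 55.6 to 61.4 read counts per 1000000 (CPM) in SK-UT-1B and 869 to 1230 CPM in SK-LMS-1. MYH11, the smooth muscle myosin heavy chain, had at most 5 counts in any library, and DES (desmin) had 0 counts in all 8 SK-LMS-1 libraries. The epithelial keratin KRT8 was at 0 in every SK-UT-1B library and at 87.0 to 109 CPM in SK-LMS-1. The summed levels of 3 leukocyte and 3 endothelial markers stayed at or under 9.40 CPM. CPM here are scaled between libraries by TMM normalization, and a gene counts as differentially expressed where edgeR's quasi-likelihood test gave an adjusted p under 0.05 over the 21114 genes tested. Nothing in the sources says that the libraries of a group came from separate cultures, so p-values measure only the spread between these libraries.

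The largest contrast among the members lay in the malic enzymes, so their upstream sequences are shown first. ME1 is the cytosolic NADP-dependent enzyme, ME2 the mitochondrial NAD-dependent one, and ME3 the mitochondrial NADP-dependent one. In GENCODE v44 on hg38, ME1 (ENSG00000065833.9) lies on chromosome 6 from 83210402 to 83431051 (minus strand), ME2 (ENSG00000082212.13) on chromosome 18 from 50879080 to 50954257 (plus strand), and ME3 (ENSG00000151376.18) on chromosome 11 from 86441108 to 86672636 (minus strand). The 250 bases before the start site that RefSeq (GRCh38.p14) gives nearest to the canonical GENCODE start are chr6:83431052-83431301 for ME1, chr18:50878868-50879117 for ME2, and chr11:86672617-86672866 for ME3. They are printed 5' to 3' on the strand of the gene, and capitals mark a match on either strand to TGACNNNGC, the core of the antioxidant response element:
ME1: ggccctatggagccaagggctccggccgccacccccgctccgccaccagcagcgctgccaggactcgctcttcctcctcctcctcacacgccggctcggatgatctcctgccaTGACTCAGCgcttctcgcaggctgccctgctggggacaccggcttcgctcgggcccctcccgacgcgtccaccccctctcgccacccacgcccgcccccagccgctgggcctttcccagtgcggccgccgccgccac
ME2: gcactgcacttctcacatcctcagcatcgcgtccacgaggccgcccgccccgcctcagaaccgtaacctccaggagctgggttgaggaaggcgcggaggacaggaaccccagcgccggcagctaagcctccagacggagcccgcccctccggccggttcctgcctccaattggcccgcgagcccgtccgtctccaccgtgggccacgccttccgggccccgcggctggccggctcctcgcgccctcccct
ME3: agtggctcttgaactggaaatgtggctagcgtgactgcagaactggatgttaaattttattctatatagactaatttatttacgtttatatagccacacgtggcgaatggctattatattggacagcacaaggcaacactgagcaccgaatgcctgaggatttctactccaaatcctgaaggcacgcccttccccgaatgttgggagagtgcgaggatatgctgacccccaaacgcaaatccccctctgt
The ME1 window holds 1 match, TGACTCAGC, and the windows of ME2 and ME3 hold none. Of all 35116 windows of this length, 10.9% hold a match, and of the 29 members with a window 6 do (IDH1, IDH3G, OGDHL, ME1, MPC1, and GOT2). The ME1 window holds 25 CG dinucleotides, the ME2 window 27, and the ME3 window 9, against medians of 21 over the members and 11 over all windows.

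No SK-UT-1B library had a count for ME1 or ME3, whereas both were present in all 8 SK-LMS-1 libraries. In SK-LMS-1, ME1 counts were 1085 and 949 (DMSO set 2), 902 and 1287 (DMSO set 4), 1328 and 1065 (MK-0752), and 1206 and 843 (combination). On the CPM scale this was 28.9 at the lowest, 34.5 at the median, and 37.2 at the highest. ME3 counts, in the same order, were 1331 and 1339, 1359 and 1638, 1905 and 2291, and 1885 and 1144, or 38.1, 51.0, and 62.2 CPM at the lowest, median, and highest. The lines are fully separated for both genes. Within SK-LMS-1, the highest and the lowest ME1 level and the highest ME3 level were those of libraries after MK-0752. With both DMSO sets together, the MK-0752 and DMSO libraries overlapped for both genes. Against DMSO set 2 alone ME3 did not overlap, at 53.4 and 62.2 CPM after MK-0752 against 38.1 and 48.5 CPM. The log2FC there was 0.42 (SE 0.26, edgeR adjusted p = 0.806).

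A floor of 3 counts was set in each SK-UT-1B library (0.0796 to 0.106 CPM). The SK-LMS-1 mean of ME1 was 369-fold this floor for the DMSO libraries and 376-fold for the combination libraries. ME3 was 502-fold the floor for DMSO and 550-fold for the combination. Genes without a count were far more common in single libraries than Poisson sampling gives, so these folds are not lower bounds on the difference. Both genes passed the filter on low counts only through SK-LMS-1, so no p-value is given for them here. Neither gene overlaps another gene's exons in the annotation.

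ME2 ran the other way. Its level in SK-UT-1B was 179 and 217 CPM after DMSO and 146 and 186 CPM after the combination. In SK-LMS-1 it was 62.7 CPM at the lowest, 75.9 at the median, and 79.9 at the highest, so that no library of one line reached the range of the other. In the DMSO libraries it was 2.68-fold lower in SK-LMS-1 (log2FC -1.42, SE 0.15, edgeR adjusted p = 1.87e-07) and 2.12-fold lower after the combination (log2FC -1.09, SE 0.18, adjusted p = 8.35e-05). Per transcript length (transcripts per 1000000, TPM), the sum of the 3 genes was 51.7 and 64.6 TPM in SK-UT-1B after DMSO, all of it ME2, and 86.0 to 103 TPM in SK-LMS-1. It was 50.7 and 56.8 TPM after the combination in SK-UT-1B and 97.1 and 106 TPM in SK-LMS-1. In SK-LMS-1, ME3 had the highest TPM of the 3, with a median of 54.7, against 25.2 for ME1 and 20.7 for ME2.

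**Figure D1:**
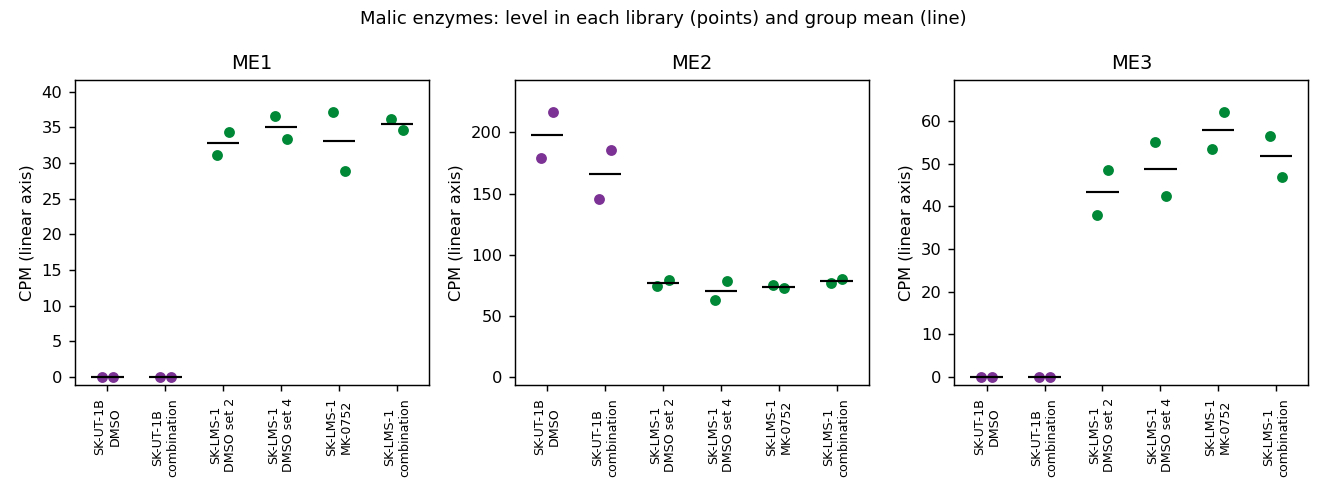
Level of ME1, ME2, and ME3 (CPM, linear axis, a separate scale for each gene) in each of the 12 libraries, as points, with the mean of each group of 2 as a line. ME1 and ME3 lie at 0 in the 4 SK-UT-1B libraries and at 28.9 to 37.2 and 38.1 to 62.2 CPM in SK-LMS-1, whereas ME2 is higher in every SK-UT-1B library.

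The comparison of the lines after DMSO covered 4 SK-LMS-1 and 2 SK-UT-1B libraries. Of the 30 members that passed the filter on low counts, 26 were differentially expressed, against 41.0% of all genes tested. In SK-LMS-1, 18 of them were lower (19.5% of all genes) and 8 were higher (21.5%). Counted among the higher, here and after the combination, are ME1 and ME3, which passed the filter only through SK-LMS-1. With an absolute log2FC of at least 1 as well, the study's threshold, 11 were lower (14.1% of all genes) and 3 were higher (17.0%). The median log2FC was -0.70, also with ME1 and ME3 at their folds over the floor of 3 counts, and it was 0.00 over all genes tested. IDH3B, IDH3G, MDH2, and MPC1 were not differentially expressed, and PCK1 was not tested. Most members had high counts, at least 278 in every library for 27 of them. In the fit of only the 13522 genes with a mean of at least 50 counts, 28.2% were called lower and 31.7% higher. That fit called the same 26 members. The members together took 0.3611% and 0.3735% of the counts in the SK-UT-1B DMSO libraries and 0.2402% to 0.2470% in the SK-LMS-1 DMSO libraries. Fewer cells with a transcript and less of it per cell cannot be told apart in these bulk data. The share of mitochondrially encoded reads was also lower in SK-LMS-1, and its part in these differences was not tested.

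After the combination, 17 of 30 members differed between the lines (32.9% of all genes), 9 lower (13.6%) and 8 higher (19.3%) in SK-LMS-1. With an absolute log2FC of at least 1, 5 were lower (9.88%) and 3 were higher (15.6%). The median log2FC was -0.19, against 0.02 over all genes. Among the genes with a mean of at least 50 counts, 22.6% were called lower and 28.8% higher. These libraries are other than those of the DMSO comparison, and 16 members were differentially expressed in both, all 16 in the same direction. They made up 61.5% of the members called after DMSO and 94.1% of those called after the combination, where the shares over all genes were 72.7% and 90.6%. Called after DMSO alone were CS, IDH1, OGDH, OGDHL, SUCLG1, MDH1, PDHX, MPC2, GOT1, and GOT2, and after the combination alone MDH2. Of these, GOT1 and OGDHL were also called after the combination with DESeq2, with its size factors in edgeR, with either other filter on low counts, and without library 3-3, and MDH1 and MPC2 were called without library 3-1. A call in one condition alone does not show a difference between the conditions, and the test of that difference, which is the difference between the combination effects of the lines where DMSO set 4 is the control, is given further on.

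Single libraries bore on these counts. Without SK-UT-1B DMSO library 4-1 the members called higher after DMSO fell from 8 to 4, with OGDH, DLST, SUCLG2, and GLUD1 lost, and over all genes the share called higher fell from 21.5% to 15.6%. Without library 4-2 the calls of ACO1, IDH1, OGDH, SUCLG1, FH, and GOT1 were lost, ACO1 was also lost without SK-LMS-1 library 4-1, OGDH without each of the 4 SK-LMS-1 libraries, and GLUD1 without SK-LMS-1 libraries 2-1 or 4-2. The other 17 calls after DMSO held with each library left out. After the combination, 10 calls held with each library left out (IDH2, DLST, SUCLA2, SUCLG2, PC, PDHB, ME1, ME2, ME3, and GLUD1). IDH3A, DLD, and FH were lost without SK-UT-1B library 3-3, and ACO1 and MDH2 without 3-1. IDH3A, DLD, MDH2, PDHA1, and DLAT were lost without SK-LMS-1 library 4-2, and MDH2 also without 4-1. The counts past an absolute log2FC of 1 rose to 9 lower without library 3-1 (9.15% of all genes) and to 6 higher without library 3-3 (13.2%). Where 1 library remained in an arm, it was assumed to vary like the other groups. The filter on low counts also let more genes in with a library left out, so shares of all genes there have a larger base. Without SK-UT-1B DMSO library 4-1, for example, 24628 genes were tested, against 21114 in the main fit. The same holds for such shares further on.

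**Figure D2:**
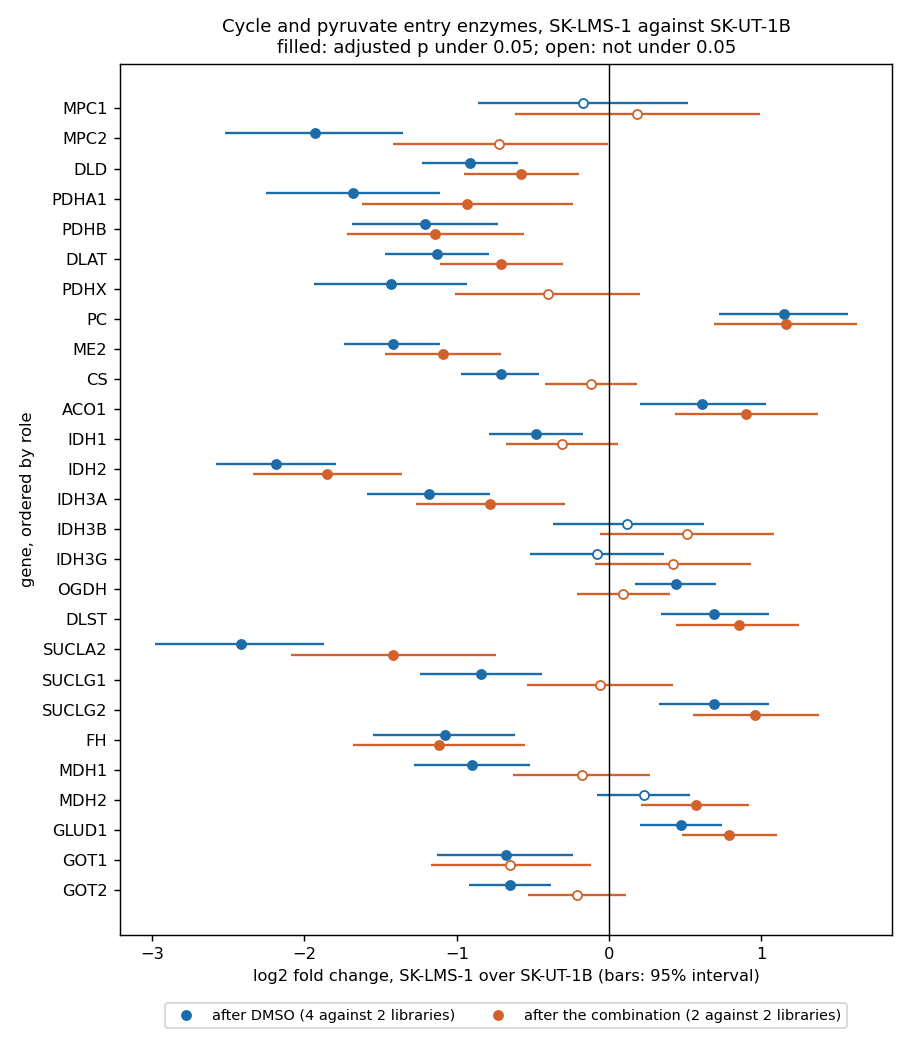
Log2 fold change of 27 members in SK-LMS-1 over SK-UT-1B after DMSO (blue) and after the combination (orange), with 95% intervals as bars and filled points where the adjusted p was under 0.05. ME1, ME3, OGDHL, and PCK1, which have libraries at 0 counts, are left out; most members lie left of 0 after DMSO, and PC, ACO1, DLST, SUCLG2, GLUD1, OGDH, MDH2, and IDH3B lie right of it in both conditions, with OGDH and MDH2 called in one condition each and IDH3B in neither.

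**Figure D3:**
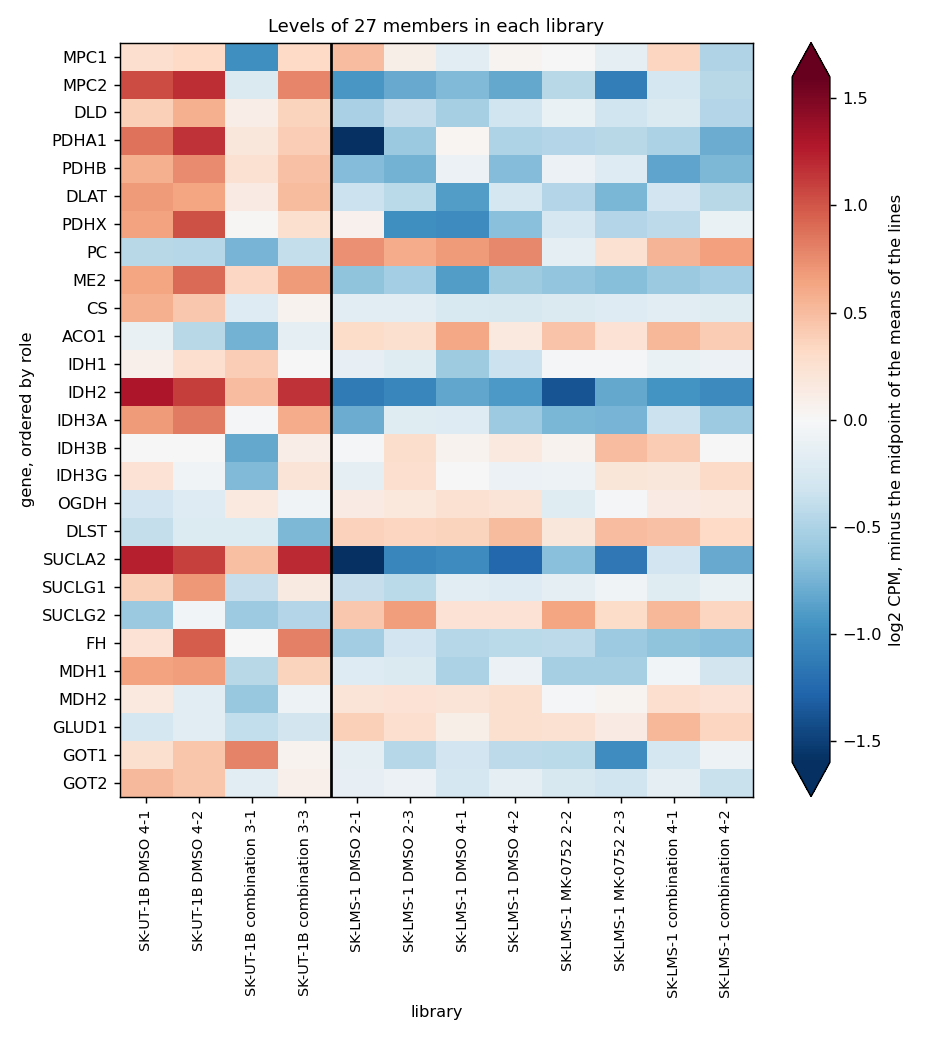
Level of the same 27 members in each of the 12 libraries (log2 CPM minus the midpoint of the means of the lines; red is higher, blue is lower, and the scale ends at 1.6 in either direction). IDH2, SUCLA2, MPC2, and the pyruvate dehydrogenase genes are mostly red in SK-UT-1B and blue in SK-LMS-1, and SK-UT-1B combination library 3-1 is paler or bluer than the other 3 SK-UT-1B libraries in most rows.

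At the entry of pyruvate, the carrier subunits differed in their pattern. MPC2 was 47.3 and 52.0 CPM in SK-UT-1B after DMSO and 12 to 14 CPM in SK-LMS-1, a 3.82-fold lower level (log2FC -1.93, SE 0.28, edgeR adjusted p = 1.07e-05). After the combination it was 19.5 and 39.3 CPM in SK-UT-1B against 18.8 and 16.9 CPM, with a log2FC of -0.72 (SE 0.34) and an adjusted p of 0.119. MPC1, its obligate partner, overlapped between the lines in both conditions. Its log2FC after DMSO was -0.17, with a 95% interval from -0.86 to 0.52. Up to 575 bases of MPC2 exons also lie in exons of DCAF6 on the other strand. How strand was handled in the counting is not given in the sources used here, so reads of the pair cannot be told apart.

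All 5 genes of the pyruvate dehydrogenase complex were called lower in SK-LMS-1 after DMSO (19.5% of all genes were). PDHA1, the alpha subunit of the decarboxylase E1, was 83.5 and 102 CPM in SK-UT-1B and 12.1, 30.4, 46.7, and 32.6 CPM in SK-LMS-1 (3.21-fold lower, log2FC -1.68, SE 0.27, edgeR adjusted p = 7.02e-05). The lines did not overlap, but the SK-LMS-1 libraries themselves spread widely, with library 2-1 lowest. PDHB, the beta subunit of E1, was 41.8 and 47.5 CPM against 17.4, 16.6, 26.3, and 17.3 CPM (2.32-fold lower, log2FC -1.21, SE 0.23, adjusted p = 0.000216). DLAT, the acetyltransferase core E2, was 241 and 232 CPM against 118, 111, 80.9, and 123 CPM (2.19-fold lower, log2FC -1.13, SE 0.16, adjusted p = 9.63e-06). PDHX, which tethers E3 to the core, was 66.6 and 86.4 CPM against 44.8, 21.7, 21.3, and 27 CPM (2.7-fold lower, log2FC -1.43, SE 0.24, adjusted p = 6.31e-05). DLD, the dihydrolipoamide dehydrogenase E3 that the oxoglutarate dehydrogenase complex also uses, was 139 and 158 CPM against 73.3 to 85.2 CPM (1.88-fold lower, log2FC -0.91, SE 0.15, adjusted p = 4.86e-05). In each of the 5, both SK-UT-1B libraries lay above all 4 SK-LMS-1 libraries. Over all 12 libraries, whatever the treatment, 17.4% of all genes tested were lower in every SK-LMS-1 library.

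After the combination, all 5 had a log2FC under 0, and 4 of them were called lower in SK-LMS-1 (13.6% of all genes were). The log2FC was -1.14 for PDHB (SE 0.28, edgeR adjusted p = 0.00295), -0.93 for PDHA1 (SE 0.33, adjusted p = 0.0372), -0.71 for DLAT (SE 0.19, adjusted p = 0.00715), and -0.58 for DLD (SE 0.18, adjusted p = 0.0161). PDHX was not called, at 43.3 and 51.2 CPM in SK-UT-1B against 32.0 and 39.6 CPM (log2FC -0.40, 95% interval -1.01 to 0.20). Exons of PDHA1, DLAT, PDHX, and DLD overlap those of a coding gene on the other strand, by up to 956, 1004, 152, and 300 bases.

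Pyruvate carboxylase (PC), which makes oxaloacetate from pyruvate, was higher in SK-LMS-1. It was 28.6 and 28.4 CPM in SK-UT-1B after DMSO and 64.9, 58.8, 62.6, and 66.4 CPM in SK-LMS-1 (2.22-fold, log2FC 1.15, SE 0.20, edgeR adjusted p = 0.000105). After the combination it was 23.2 and 29.8 CPM against 56.9 and 61.3 CPM, or 2.23-fold higher (log2FC 1.16, SE 0.22, adjusted p = 0.000383). The 2 libraries after MK-0752 alone, at 35.1 and 46.2 CPM, were lower than the other 6 SK-LMS-1 libraries but above all SK-UT-1B libraries. Up to 621 bases of PC exons also lie in exons of LRFN4 on the other strand. PCK1, the cytosolic phosphoenolpyruvate carboxykinase that takes oxaloacetate out of the cycle, had 58 counts in SK-LMS-1 DMSO library 4-2 and 0 in the other 11 libraries.

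From citrate to oxoglutarate, citrate synthase (CS) was lower in SK-LMS-1 by 1.64-fold after DMSO, at 209 to 222 CPM in the 4 libraries against 371 and 337 CPM (log2FC -0.71, SE 0.12, edgeR adjusted p = 7.37e-05). After the combination the lines overlapped, with 217 and 260 CPM in SK-UT-1B and 221 and 219 CPM in SK-LMS-1 (log2FC -0.12, 95% interval -0.42 to 0.18). ACO1, the cytosolic aconitase that also binds iron-responsive elements, was higher in SK-LMS-1 in both conditions, by 1.53-fold after DMSO (log2FC 0.61, SE 0.20, adjusted p = 0.0173) and 1.86-fold after the combination (log2FC 0.90, SE 0.22, adjusted p = 0.0036).

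IDH2 showed one of the widest gaps of the members outside the malic enzymes. It was 167 and 147 CPM in SK-UT-1B after DMSO and 95.9 and 152 CPM after the combination, and between 26.1 and 38.7 CPM in all 8 SK-LMS-1 libraries. In SK-LMS-1, IDH2 was 4.55-fold lower after DMSO (log2FC -2.19, SE 0.19, edgeR adjusted p = 9.79e-09) and 3.61-fold lower after the combination (log2FC -1.85, SE 0.23, adjusted p = 2.74e-06). Its cytosolic counterpart IDH1 differed less, at 116 and 132 CPM against 74.2 to 99.9 CPM after DMSO (log2FC -0.48, SE 0.15, adjusted p = 0.0132). After the combination IDH1 had a log2FC of -0.31 (95% interval -0.68 to 0.06).

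Of the NAD-dependent isocitrate dehydrogenase, the catalytic subunit gene IDH3A was lower in SK-LMS-1 and the genes of the other 2 subunits were not called. IDH3A was 132 and 147 CPM in SK-UT-1B and 47.6, 72.2, 71.7, and 55.1 CPM in SK-LMS-1 after DMSO (log2FC -1.18, SE 0.19, edgeR adjusted p = 4.78e-05). After the combination its log2FC was -0.78 (SE 0.23, adjusted p = 0.013). IDH3B had a log2FC of 0.12 after DMSO (95% interval -0.37 to 0.62) and IDH3G one of -0.08 (-0.52 to 0.36). After the combination the values were 0.51 (-0.06 to 1.08) and 0.42 (-0.09 to 0.93), and without SK-UT-1B library 3-3 both were called higher and IDH3A was not called. Up to 2608 bases of IDH3A exons lie in exons of ACSBG1 on the other strand.

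In the oxoglutarate dehydrogenase complex, DLST, the succinyltransferase core, was higher in SK-LMS-1 both after DMSO (67.7 and 75.7 CPM against 112 to 125 CPM, log2FC 0.69, SE 0.17, edgeR adjusted p = 0.00242) and after the combination (log2FC 0.85, SE 0.19, adjusted p = 0.00161). OGDH, the decarboxylase, was 1.35-fold higher after DMSO (log2FC 0.44, SE 0.13, adjusted p = 0.00899) and had a log2FC of 0.09 after the combination (95% interval -0.21 to 0.40). OGDHL, its paralog, was read at low and uneven counts. Its counts in SK-UT-1B were 106 and 275 (DMSO) and 1192 and 463 (combination). In SK-LMS-1 they were 47 and 2 (DMSO set 2), 0 and 0 (DMSO set 4), 25 and 2 (MK-0752), and 29 and 0 (combination). Every SK-UT-1B library thus lay above every SK-LMS-1 library, and OGDHL was called lower after DMSO (adjusted p = 0.0177, at 5.48 CPM on average in SK-UT-1B and 0.355 CPM in SK-LMS-1) but not after the combination (log2FC -5.76, SE 1.92, adjusted p = 0.0524). No fitted fold is given after DMSO, because set 4 is at 0 and the value there depends on the prior count. With DMSO set 2 alone as the SK-LMS-1 libraries, the log2FC was -2.92 and the adjusted p 0.231, and over the alternatives after the combination the adjusted p ranged from 4.30e-08 to 0.049. The log2FC after the combination was -4.81 without SK-LMS-1 library 4-2, and without 4-1 the remaining library is at 0, so that the fitted -12.63 depends on the prior count and is no bound.

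Succinyl-CoA ligase joins the shared alpha subunit SUCLG1 to either the ATP-specific beta subunit SUCLA2 or the GTP-specific SUCLG2, and the beta subunits differed between the lines in opposite directions. SUCLA2 was 65.0 and 58.8 CPM in SK-UT-1B after DMSO and 7.97, 13.3, 13.7, and 11.5 CPM in SK-LMS-1. This was 5.36-fold lower (log2FC -2.42, SE 0.26, edgeR adjusted p = 2.86e-07), the largest such difference after DMSO among the members with at least 278 counts in every library. After the combination it was 38.6 and 62.9 CPM against 22.2 and 15.8 CPM, or 2.67-fold lower (log2FC -1.42, SE 0.32, adjusted p = 0.00166). SUCLG2 was 61.6 and 89.9 CPM in SK-UT-1B after DMSO and 125, 148, 109, and 109 CPM in SK-LMS-1 (1.61-fold higher, log2FC 0.69, SE 0.17, adjusted p = 0.00309). After the combination it was 62.0 and 67.2 CPM against 134 and 118 CPM (1.95-fold higher, log2FC 0.96, SE 0.20, adjusted p = 0.00063). SUCLG1 was lower after DMSO (log2FC -0.84, SE 0.19, adjusted p = 0.00132) and had a log2FC of -0.06 after the combination (95% interval -0.54 to 0.42).

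FH, the fumarase, was 62.0 and 103 CPM in SK-UT-1B after DMSO and 35.9 to 42.7 CPM in SK-LMS-1 (2.12-fold lower, log2FC -1.08, SE 0.22, edgeR adjusted p = 0.000516). It was 2.17-fold lower after the combination (log2FC -1.12, SE 0.27, adjusted p = 0.00271). MDH1, the cytosolic malate dehydrogenase of the malate-aspartate shuttle, was 175 and 178 CPM against 79.4 to 105 CPM after DMSO (log2FC -0.90, SE 0.18, adjusted p = 0.000425), and the lines overlapped after the combination. MDH2, the mitochondrial enzyme, was not called after DMSO (log2FC 0.23, 95% interval -0.08 to 0.53) and was higher in SK-LMS-1 after the combination (log2FC 0.57, SE 0.17, adjusted p = 0.0126).

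At the exchange with glutamate and aspartate, GLUD1, the glutamate dehydrogenase, was 175 and 189 CPM in SK-UT-1B after DMSO and 227 to 275 CPM in SK-LMS-1 (log2FC 0.47, SE 0.13, edgeR adjusted p = 0.00564). After the combination it was 1.73-fold higher (log2FC 0.79, SE 0.15, adjusted p = 0.000261). The pseudogene GLUD1P3 and the paralog GLUD2 had counts equal to 0.671% and 0.368% of those of GLUD1, the largest shares of any near copy of a member. The aminotransferase genes GOT1 (cytosolic) and GOT2 (mitochondrial) were lower in SK-LMS-1 after DMSO, with a log2FC of -0.68 (SE 0.21, adjusted p = 0.0136) and -0.65 (SE 0.13, adjusted p = 0.000387). After the combination they were not called, at -0.65 (adjusted p = 0.0556) and -0.21 (adjusted p = 0.32), although GOT1 passed the threshold under the alternatives named above.

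Over all libraries of a line, whatever the treatment, 7 members were higher in each of the 8 SK-LMS-1 libraries than in any of the 4 SK-UT-1B libraries (19.4% of all genes tested) and 13 were lower (17.4%). The higher ones were PC, ME1, ME3, ACO1, DLST, SUCLG2, and GLUD1. The lower ones were MPC2, PDHA1, PDHB, DLAT, DLD, ME2, IDH1, IDH2, IDH3A, OGDHL, SUCLA2, FH, and GOT1. By median TPM on canonical transcript lengths the highest members were MDH1 (330), MDH2 (292), and CS (278) in SK-UT-1B and MDH2 (337), GLUD1 (189), and CS (183) in SK-LMS-1. In SK-UT-1B the ranges of these 3 overlapped (200 to 369, 242 to 342, and 234 to 333 TPM), also with that of the fourth, GOT2 (218 to 292 TPM). In SK-LMS-1, MDH2 (287 to 346 TPM) stood above GLUD1 and CS, whose ranges (169 to 224 and 177 to 191 TPM) overlapped with each other and with that of the fourth, IDH3G (157 to 210 TPM). The order depends on the length used. With the union of all exons the highest were MDH2 (276), GOT2 (262), and IDH2 (231) in SK-UT-1B and MDH2 (341), OGDH (198), and GOT2 (182) in SK-LMS-1.

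Ratios between paired genes, taken per transcript length within a library, gave the balance of isozymes and subunits. SUCLA2 over SUCLG2 was 0.693 to 1.18 in the 4 SK-UT-1B libraries (median 0.871) and 0.0707 to 0.185 in the 8 SK-LMS-1 libraries (median 0.127). IDH1 over IDH2 was 0.794 to 1.72 in SK-UT-1B and 2.22 to 4.70 in SK-LMS-1. The ratio of MPC1 to MPC2 was 1.13 to 1.49 and 1.99 to 5.49, and that of MDH1 to MDH2 was 0.827 to 1.32 and 0.452 to 0.597. IDH3A over IDH3B was 1.03 to 1.31 in SK-UT-1B and 0.310 to 0.607 in SK-LMS-1, and IDH3A over IDH3G was 0.382 to 0.540 and 0.152 to 0.254. In each of these 6 pairs the lines did not overlap. They overlapped for GOT1 over GOT2 (0.305 to 0.708 and 0.229 to 0.442) and PDHA1 over PDHB (0.699 to 0.972 and 0.314 to 0.929). The length used sets the size of a ratio but not the separation of the lines. With the union of all exons, for example, SUCLA2 over SUCLG2 was 0.217 to 0.367 and 0.0221 to 0.0577.

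**Figure D4:**
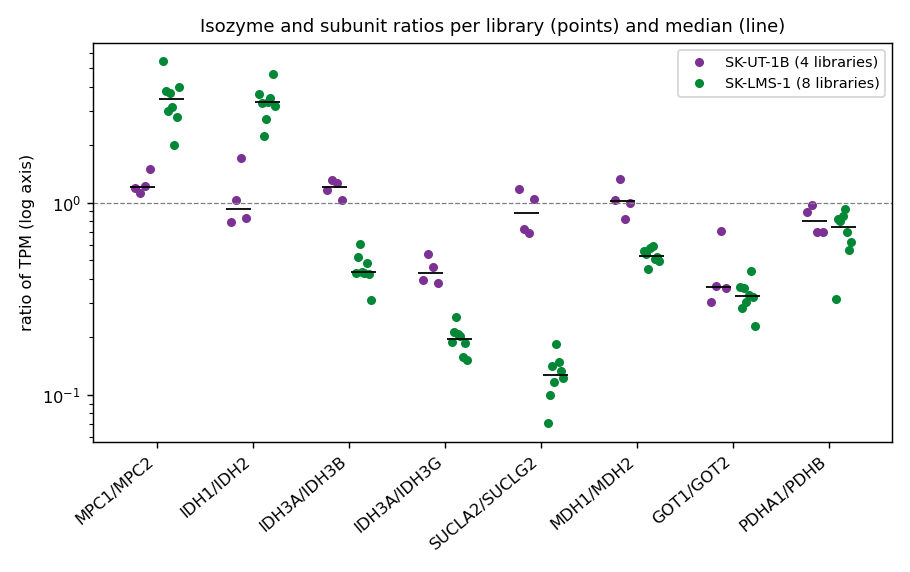
Ratio of TPM between paired genes (log axis) in each of 4 SK-UT-1B (purple) and 8 SK-LMS-1 (green) libraries, with the median of each line as a black bar and a dashed line at 1. The lines are separated in the 6 pairs from MPC1/MPC2 to MDH1/MDH2, most widely in SUCLA2/SUCLG2, and overlap in GOT1/GOT2 and PDHA1/PDHB.

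The effect of the combination was then compared within SK-UT-1B, between libraries 3-1 and 3-3 and DMSO libraries 4-1 and 4-2. No member was called by edgeR, where 0.715% of all genes were. At an unadjusted p under 0.05 there were 8 members (10.5% of all genes), and DESeq2 called 2, CS and GOT2, both lower (1.19% of the 30051 genes it covered). ME1 and ME3, without counts in this line, have no effect here. Of the other 28 tested members 24 had a log2FC under 0, against 47.6% of the 18835 tested genes with a count in SK-UT-1B, and the median was -0.29, against 0.03 over those genes. In 12 members both combination libraries lay below both DMSO libraries (17.3% of those genes), and in 2, OGDH and OGDHL, above them (18.7%).

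CS was 371 and 337 CPM after DMSO and 217 and 260 CPM after the combination (log2FC -0.57, SE 0.14, edgeR adjusted p = 0.0822, from 0.000689 to 0.604 over the alternatives). GOT2 was 271 and 257 CPM against 168 and 200 CPM (log2FC -0.52, SE 0.15, adjusted p = 0.155, from 0.00627 to 0.621). MDH1 was 175 and 178 CPM against 82.8 and 144 CPM (log2FC -0.64, SE 0.22, adjusted p = 0.228, from 7.97e-05 to 1). For each of these 3 genes the groups did not overlap, and library 3-1 was the lowest. OGDHL was 3.67 and 7.29 CPM after DMSO and 32.6 and 16.4 CPM after the combination, with a log2FC of 2.16 (SE 1.61) and an edgeR adjusted p of 0.743. That log2FC was 1.55 without combination library 3-1 and 2.74 without DMSO library 4-2. The 95% interval lay within a log2FC of -1 to 1 for 21 of the 28 members.

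Library 3-1 was the lowest of the 4 SK-UT-1B libraries for 22 of the 28 members with counts there, as for 26.1% of all genes. It also had the lowest share of mitochondrially encoded reads, 3.60% against 4.67% to 5.81% in the other 3, whose part in these values was not tested. Without library 3-3, so that 3-1 alone stood for the combination, 8 members were called lower (CS, IDH3A, IDH3G, SUCLG1, MDH1, MDH2, MPC2, and GOT2), and over all genes the share called lower also rose, from 0.251% to 3.77%. Without 3-1, none were, and the CS and MDH1 log2FC were -0.48 and -0.32. The DMSO and combination libraries of this line carry different first numbers in their names, so whatever that number marks cannot be told apart from the treatment.

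In SK-LMS-1, no member was called after the combination relative to DMSO set 4 (0.0237% of all genes), none had an unadjusted p under 0.05 (4.33% of all genes), and DESeq2 called 0. The median log2FC was 0.07, against 0.03 over all genes, and 21 of 30 members were over 0 (52.9% of all genes). IDH1 was 74.2 and 86.1 CPM after DMSO and 102 and 103 CPM after the combination (log2FC 0.35, SE 0.18, edgeR adjusted p = 0.907). PDHX was 21.3 and 27 CPM against 32.0 and 39.6 CPM (log2FC 0.57, SE 0.29, adjusted p = 0.907). OGDHL had 0 and 0 counts against 29 and 0, and no fold is given because the DMSO libraries are both at 0. For 25 of 30 members the 95% interval lay within a log2FC of -1 to 1.

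After MK-0752 alone relative to DMSO set 2, no member was called either (0.365% of all genes), 1 had an unadjusted p under 0.05 (6.41%), and DESeq2 called 0. That member was PC, at 64.9 and 58.8 CPM after DMSO and 35.1 and 46.2 CPM after MK-0752 (log2FC -0.61, SE 0.22, edgeR adjusted p = 0.498). The E1 subunits had positive values, with PDHA1 at 12.1 and 30.4 CPM against 33.2 and 33.7 CPM (log2FC 0.66, SE 0.33, adjusted p = 0.801) and PDHB at 17.4 and 16.6 CPM against 26.4 and 24.3 CPM (log2FC 0.58, SE 0.28, adjusted p = 0.78). PDHA1 rests on DMSO library 2-1, as its log2FC was 0.14 without that library and 1.44 without library 2-3 (adjusted p = 0.00701). Against both DMSO sets together, PDHA1 had a log2FC of 0.14 (edgeR adjusted p = 1) and PDHB one of 0.39 (adjusted p = 0.674). The 95% interval lay within -1 to 1 for 24 of 30 members, and the median log2FC was -0.03, against 0.00 over all genes.

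**Figure D5:**
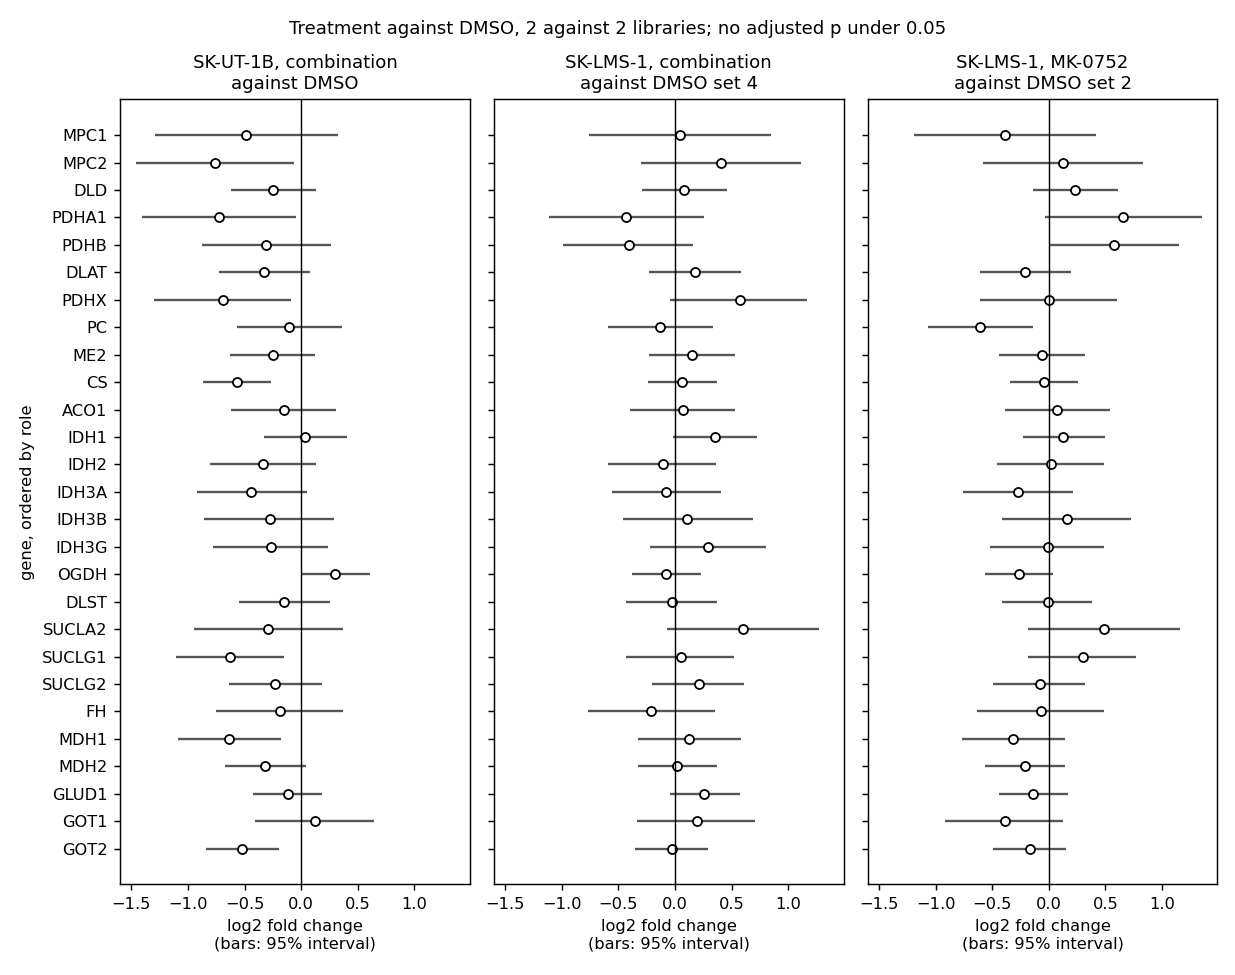
Log2 fold change of 27 members after each treatment relative to 2 DMSO libraries (in SK-LMS-1 the set matched by library name), with 95% intervals as bars. No adjusted p was under 0.05; in SK-UT-1B most points lie left of 0 (24 of the 28 tested members with counts there), and in SK-LMS-1 they lie around it.

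The difference between the combination effects of the lines was tested directly, and no member was called (0.232% of all genes), with 6 at an unadjusted p under 0.05 (7.67% of all genes) and 0 by DESeq2. Of the 28 members with counts in SK-UT-1B, 24 had a more positive log2FC in SK-LMS-1 (53.0% of the tested genes with counts there), and the median difference was 0.39, against 0.05 over those genes. The same SK-UT-1B libraries gave the 24 of 28 members under 0 in that line, so these counts are not independent. The lowest p belonged to CS (difference 0.63, SE 0.20, edgeR adjusted p = 0.435), PDHX (1.26, SE 0.41, adjusted p = 0.436), and MDH1 (0.76, SE 0.31, adjusted p = 0.6). MPC2 had a difference of 1.16 (SE 0.48, adjusted p = 0.6). Without SK-UT-1B library 3-3, 5 members were called higher (CS, IDH3G, MDH1, PDHX, and MPC2), while the share of all genes called higher rose from 0.0853% to 2.37%, and PDHX was also called without SK-UT-1B library 4-1 or without SK-LMS-1 DMSO library 4-2.

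The single agent and the combination, whose MK-0752 doses differ, were also set against each other in SK-LMS-1. No member was called by edgeR (0.0379% of all genes), 2 had an unadjusted p under 0.05 (5.18%), and DESeq2 called 0. The 2 were PDHB (difference 0.99, SE 0.39, edgeR adjusted p = 0.911) and PDHA1 (1.09, SE 0.46, adjusted p = 0.911), and 18 of 30 intervals lay within -1 to 1. The PDHA1 difference was 0.55 without DMSO library 2-1, 1.86 without 2-3 (edgeR adjusted p = 0.00608), and 0.18 against both DMSO sets together, where that of PDHB was 0.63. OGDHL, for which set 4 at 0 again allows no fold, had an adjusted p of 0.911, and over the alternatives it ranged from 0.000362 to 1 and passed the threshold in 6 of 14. Between the DMSO sets of SK-LMS-1, edgeR and DESeq2 each called 0 members, with 2 at an unadjusted p under 0.05 (5.67% of all genes), and 0% of all genes were called by edgeR. PDHA1 had a log2FC of 0.90 between them (SE 0.33, edgeR adjusted p = 0.794), which was 0.38 without library 2-1 and 1.69 without 2-3. Its levels were 12.1 and 30.4 CPM in set 2 and 46.7 and 32.6 CPM in set 4. Its DMSO libraries alone thus ran from 12.1 to 46.7 CPM, a range that holds all 4 treated SK-LMS-1 libraries (26.5 to 33.7 CPM). The other was OGDHL (unadjusted p = 0.0386, edgeR adjusted p = 0.794), with 47 and 2 counts in set 2 and 0 and 0 in set 4, for which no fold is given. SUCLG2, next by p, had a log2FC of -0.33 (SE 0.19, adjusted p = 0.794).

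Among 44 related genes of the pathway, 43 were tested (GPT was not). After DMSO, 21 were lower (19.5% of all genes) and 3 were higher (21.5%) in SK-LMS-1, and with an absolute log2FC of at least 1 there were 16 lower (14.1%) and 1 higher (17.0%). After the combination 17 were lower (13.6%) and 5 higher (19.3%), of which 11 (9.88%) and 3 (15.6%) passed that fold. In none of the 3 treatment comparisons was a related gene called by edgeR, with 6 of 43 at an unadjusted p under 0.05 in SK-UT-1B (10.5% of all genes) and 5 (4.33%) and 1 (6.41%) in SK-LMS-1 after the combination and MK-0752. SDHA, the flavoprotein subunit of succinate dehydrogenase, had a log2FC of -2.19 and -1.64 after DMSO and the combination (edgeR adjusted p = 0.000243 and 0.0182) and SDHC, a membrane anchor, one of -1.33 after DMSO (adjusted p = 0.00017). After the combination the lines overlapped for SDHC, at 49.9 and 93.6 CPM in SK-UT-1B against 49.9 and 56.4 CPM (log2FC -0.43, 95% interval -1.03 to 0.17). SDHB was 107 CPM on average in SK-UT-1B and 78.8 CPM in SK-LMS-1 after DMSO, and 72.6 against 68.8 CPM after the combination. For SDHD the means were 69.8 against 40.4 CPM after DMSO and 54.1 against 43.3 CPM after the combination.

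Regulators of the pyruvate dehydrogenase complex moved in both directions between the lines. PDP1, a phosphatase that activates E1, was 192 CPM on average in SK-LMS-1 and 18.8 CPM in SK-UT-1B after DMSO (log2FC 3.35, SE 0.19, edgeR adjusted p = 1.25e-11) and 7.29-fold higher after the combination (adjusted p = 2.99e-10). The second catalytic phosphatase PDP2 was lower (2.12-fold after the combination, adjusted p = 0.00722), as was PDPR, the regulatory subunit of PDP1 (log2FC -1.87 and -2.28, adjusted p = 2.70e-08 and 5.63e-08). Of the kinases that inactivate E1, PDK3 was also lower (log2FC -1.23 and -1.53, adjusted p = 1.84e-05 and 2.07e-05). PDK2 ran the other way, at 74.1 CPM on average in SK-LMS-1 and 53.9 CPM in SK-UT-1B after DMSO (log2FC 0.45, SE 0.20, edgeR adjusted p = 0.0856) and at 83.6 against 48.9 CPM after the combination (log2FC 0.78, SE 0.23, adjusted p = 0.0128). Of the 7 carriers, 4 were called lower (19.5% of all genes) and 0 higher (21.5%) after DMSO. After the combination 4 were called lower (13.6%) and 1 higher (19.3%). The aspartate-glutamate exchangers SLC25A12 and SLC25A13 had a log2FC of -1.39 and -2.12 after DMSO (adjusted p = 5.26e-05 and 2.47e-09). SLC25A1 ran the other way, at 58.1 CPM on average in SK-LMS-1 against 43.9 CPM in SK-UT-1B after DMSO. After the combination it was 68.4 against 29.2 CPM. The mitochondrial alanine aminotransferase GPT2 was 118 CPM in SK-UT-1B and 12.7 CPM in SK-LMS-1 after DMSO (log2FC -3.22, adjusted p = 1.17e-06), and ACLY, which cleaves exported citrate, was 3.08-fold lower (adjusted p = 6.23e-09).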

How the data were processed

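RNA was sequenced from 12 libraries of 2 cell lines, 2 libraries for each of 6 groups. The deposited values are raw counts per gene that the authors made from ribosome-depleted, stranded libraries with Trim Galore 0.3.7, SortMeRNA, and STAR 2.7.9a on hg38, without normalization. The annotation, the strand setting, and any removal of duplicates are not given in the sources used here. Counts for all genes were tested with edgeR 4.0.16 (quasi-likelihood, TMM, filterByExpr, robust) in R 4.3.3, in one fit over the 12 libraries, with Benjamini-Hochberg adjustment over 21114 genes; DESeq2 1.42.0 was an alternative. TPM used Ensembl canonical transcript lengths (GENCODE v44), in which 60463 of 60649 gene IDs were matched without version. Upstream windows are from RefSeq (GRCh38.p14).

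The members and lists were chosen with earlier results of these data known. Named with values were, in each comparison, the members called or with an absolute log2FC of at least 1 and, where none was called, also the 3 with the lowest p; OGDHL is given by its counts where DMSO set 4, in which it had none, is a control. Other members and related genes with values were chosen after these were seen. Settings tried were other size factors, filters, control libraries, and each library left out. On data simulated for the SK-UT-1B comparison (19510 genes, 200 changed), the test recovered 24% of 2-fold and 61% of 4-fold changes, and 15.8% of its 101 calls were false, above the 5% aimed at. PCK1 did not pass the filter. One related gene is counted but not reported by name here.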

Additional observations from a re-analysis of the deposited data

Results flagged for a closer look

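Each of the 31 members was examined for a library far from the other 3 among the 4 SK-LMS-1 DMSO libraries, and 4 members had one; chance marks about 1 in 20. PDHB was 26.3 CPM in DMSO library 4-1, against 16.6 to 17.4 CPM in the other 3. DLST was 125 CPM in library 4-2, against 112 to 114 CPM. OGDHL was 1.35 CPM in library 2-1, against 0 to 0.0724 CPM. PCK1 was 1.5 CPM in library 4-2, against 0 in the other 3. For OGDHL and PCK1 the other 3 libraries are at or near 0. Any single library with counts is then far from them, so the rate of 1 in 20 does not apply.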

How the results depend on the processing

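Of the alternatives for single members, 661 kept direction and side of the threshold, 38 passed it newly, 34 no longer passed it, and 3 reversed; of those for counts of members, 206 stayed within 1.5 times and 25 did not. The cause was not tested. In SK-UT-1B, members called lower after the combination numbered 2 with DESeq2, 2 with no filter, and 0 to 8 with one library left out. With one library left out, members called higher numbered 0 to 1 for MK-0752, 0 to 1 for the combination in SK-LMS-1 (1 with no filter), 4 to 7 for the lines after DMSO, and 0 to 5 for the difference between the lines in the combination effect. Between the lines after the combination, 3 to 6 were higher and 4 to 9 lower with an absolute log2FC of at least 1. Between the MK-0752 and combination effects, and between the DMSO sets, 0 to 1 were higher and 0 to 1 lower, with 1 lower with no filter in each. OGDHL, whose fitted log2FC rest on DMSO libraries at 0, so that they depend on the prior count and bound nothing, ranged from -0.00 without combination library 4-1 to 7.85 without 4-2 for the combination in SK-LMS-1, and for the difference between the lines from -2.14 to 5.72 without the same libraries, with -1.86 when all 4 DMSO libraries were the control. With a replicate block, 0 members were called in either direction after the combination in SK-LMS-1. The IDH1 log2FC was then 0.36 (SE 0.18, edgeR adjusted p = 1). The deviations of same-numbered libraries correlated at -0.0166 over 9866 genes. The sources do not say whether same-numbered libraries share a culture or batch, and this correlation cannot settle it. Each group holds 2 libraries, which limits the precision of each value.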
